A study of Homo sapiens with 5 samples.

Results

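Keratins are the intermediate filament proteins of epithelial cells. The keratin genes were taken as all protein-coding genes of GENCODE release 44, lifted to the human genome build GRCh37 (hg19), whose symbol is KRT plus a number with an optional letter. This rule uses no measured value and gave 55 of 20162 protein-coding genes on chromosomes 1 to 22, X and Y. Chromatin of the established human melanoma cell line SKMEL-147 was crosslinked, sonicated and immunoprecipitated with an antibody to PHF8, a Jumonji C histone demethylase that removes repressive methyl marks from histone tails. The series holds 5 samples of this one line, 3 PHF8 ChIP-seq replicates (A, B1 and B2) and 2 input libraries (A and B). The labels name no treatment or sgRNA for these samples, and nothing says whether the replicates came from separate cultures, so their spread may be technical. The study addressed which genes PHF8 binds in melanoma cells. With 1 group, binding could be compared between genes but not between conditions.

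A keratin filament is built from pairs of one acidic type I and one basic type II protein. In humans the type II genes lie side by side on chromosome 12 together with KRT18, the single type I gene outside chromosome 17, and the other type I genes lie on chromosome 17. Each epithelium uses its own pairs, such as KRT8 with KRT18 in simple epithelia, KRT5 with KRT14 in the basal layer of the epidermis, and KRT1 with KRT10 above it. Melanocytes derive from the neural crest and are built mainly on vimentin. Peaks measure occupancy of chromatin, and neither expression nor the identity of the cells was measured in these files.

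PHF8 was called at few keratin promoters. A gene was called bound when a peak reached within 1 kb of any of its annotated transcription start sites (TSSs) in all 3 replicates. Under this rule 4 of the 55 keratin genes were bound (7.27%), KRT7, KRT8, KRT18 and KRT80, beside 60.2% of all protein-coding genes. By a like rule the study counted fewer target genes than the 12139 protein-coding genes bound here, and the source of this difference was not tested. KRT15 had a promoter peak in replicate A only, and the other 50 keratin genes had none in any replicate. Replicate A gave a promoter peak at 5 keratin genes beside 62.4% of all protein-coding genes, B1 at 4 beside 61.2% and B2 at 4 beside 60.8%. In any replicate these were 5 keratin genes and 63.0% of all. The share averaged 7.88% ± 1.05 (SD, n = 3), against 61.6% ± 0.811 for the other protein-coding genes. The difference was -53.8 percentage points ± 0.332 (SD, n = 3), with the same direction in all 3 replicates. Flipping the signs of the 3 differences, an exact two-sided permutation test, gave p = 0.25, the smallest that 3 replicates allow. The 4 genes also passed with windows of 500 bp (59.8% of all protein-coding genes) or 2 kb (60.9%), with the summit itself inside the window (59.9%), at a q-value below 0.001 (60.1%), in lists of equal length (60.0%) and with a peak required in at least 2 replicates (61.3%).

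Sequences of stretches with and without a peak in keratin genes are shown first, on the strand of that gene, with every CpG dinucleotide in capitals. A pair of them lie under PHF8 peaks, 101 bases around the summit of replicate A inside KRT7 and near the 3′ end of KRT10, where the lncRNA gene KRT10-AS1 starts on the other strand. The last gives the 200 bases just upstream of the canonical start of KRT10 (that of the transcript Ensembl chose to represent the gene), which no peak of replicate A overlapped.
KRT7 internal summit (chr12:52638185-52638285, plus strand): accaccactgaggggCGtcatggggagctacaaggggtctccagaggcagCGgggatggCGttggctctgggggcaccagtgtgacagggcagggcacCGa
KRT10 3′ end summit (chr17:38975033-38975133, minus strand): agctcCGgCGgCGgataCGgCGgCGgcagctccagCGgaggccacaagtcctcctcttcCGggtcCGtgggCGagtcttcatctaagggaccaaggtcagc
KRT10 upstream (chr17:38978867-38979066, minus strand): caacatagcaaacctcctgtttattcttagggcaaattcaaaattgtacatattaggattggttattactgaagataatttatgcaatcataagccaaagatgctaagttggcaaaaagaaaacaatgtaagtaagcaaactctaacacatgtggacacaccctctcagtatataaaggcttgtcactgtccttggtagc

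The KRT10 3′ end held 10 CpGs in 101 bases, with an observed over expected CpG ratio of 0.87. The bound stretch inside KRT7 held 4, with a ratio of 0.38. The unbound bases upstream of KRT10 held none. KRT7 ran the other way, since its unbound canonical promoter was far richer in CpG than the bound internal stretch, with a ratio of 0.83 within 250 bp of the start.

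The strongest site at a keratin promoter was the interval where KRT18 and an upstream set of KRT8 transcripts start in opposite directions. KRT8 (ENSG00000170421, chr12:53290971-53343738, minus strand) and KRT18 (ENSG00000111057, chr12:53342655-53346690, plus strand) encode the partner keratins of simple epithelia. Merged over replicates, the bound region ran over chr12:53342547-53344050. Its strongest summit had a fold enrichment over background of 25.8 (A), 12.6 (B1) and 12.8 (B2). It lay at 53343512 in A and 53343511 in B1 and B2, that is within 1 bp in every replicate, in an intron of KRT18 and a UTR of upstream KRT8 transcripts. The number of ChIP fragments at the summit, recovered from the fold enrichment and p-value, was 73 (A), 36 (B1) and 38 (B2). Exact 95% Poisson intervals were 57.2 to 91.8 for A, 25.2 to 49.8 for B1 and 26.9 to 52.2 for B2, so that of A did not overlap the others. The intervals cover counting error only, and fragments were not scaled for depth. Over all peaks the median fragments were also highest in A, at 54 against 39 in B1 and 40 in B2.

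A second summit lay just downstream of the canonical start of KRT18. It was 143 bp from that start in A, 122 bp in B1 and 52 bp in B2. Its fold enrichment was 18.6 (A), 10.2 (B1) and 7.37 (B2), below the neighbouring summit in every replicate. Replicate A had a further, weaker peak in this region, with a fold enrichment of 7.07. KRT18 and KRT8 were thus called through the same peaks and are 1 bound region, not 2 independent ones.

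For KRT8 the call rested on its upstream starts. This gene has 18 annotated TSSs. Those within the bound region lie far upstream of the canonical start at 53298860, and the strongest summit was 44.7 kb from it in all 3 replicates. The summit nearest to the canonical KRT8 start was 30.5 kb away in A, 30.5 kb in B1 and 30.9 kb in B2. No peak overlapped the 1 kb window of that start in any replicate.

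KRT80 (ENSG00000167767, chr12:52562780-52585798, minus strand), a type II keratin at the edge of the cluster, was bound at its own start. The peak covered chr12:52585356-52585996 in A, and the summit lay in a coding exon of the gene, 299 bp downstream of the canonical start in A, 113 bp in B1 and 136 bp in B2. Fold enrichment was 8.96 (A), 5.90 (B1) and 5.15 (B2), with 22, 25 and 27 fragments at the summit. Fragments were thus similar in the replicates while fold enrichment was highest in A, where the local background was 1.57 fragments against 3.40 in B1 and 4.44 in B2. The interval also lies in an intron of the lncRNA gene LINC00592, which runs on the opposite strand.

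KRT7 (ENSG00000135480, chr12:52626304-52645970, plus strand), a type II keratin of simple and glandular epithelia, was called through an internal site. The peak at chr12:52638151-52638333 in A had its summit 73 bp downstream of the start of a short transcript without a defined coding sequence, 115 bp in B1 and 86 bp in B2. It lay 11.2 kb downstream of the canonical start in A and B2 and 11.3 kb in B1. Fold enrichment was 6.55 (A), 5.83 (B1) and 4.00 (B2), and the summits held 16, 20 and 14 fragments, where the weakest called summits of the lists held 8, 8 and 10. No window around the start of a coding KRT7 transcript held a peak. KRT7 was therefore not bound when only the starts of coding transcripts were used (3 keratin genes, beside 58.7% of all protein-coding genes), nor at a fold enrichment above 4 (3 keratin genes, beside 59.8%), where 2 of 3 replicates remained.

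KRT15, a type I keratin of basal cells, had its peak in replicate A alone, at chr17:39678198-39678418. The fold enrichment was 5.98 with 17 fragments (exact 95% Poisson interval 9.90 to 27.2). The summit lay 128 bp from the start of a transcript marked for nonsense-mediated decay and 3.14 kb from the canonical start. In B1 and B2 the nearest summit to any KRT15 start was 25.3 kb away.

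**Figure D1:**
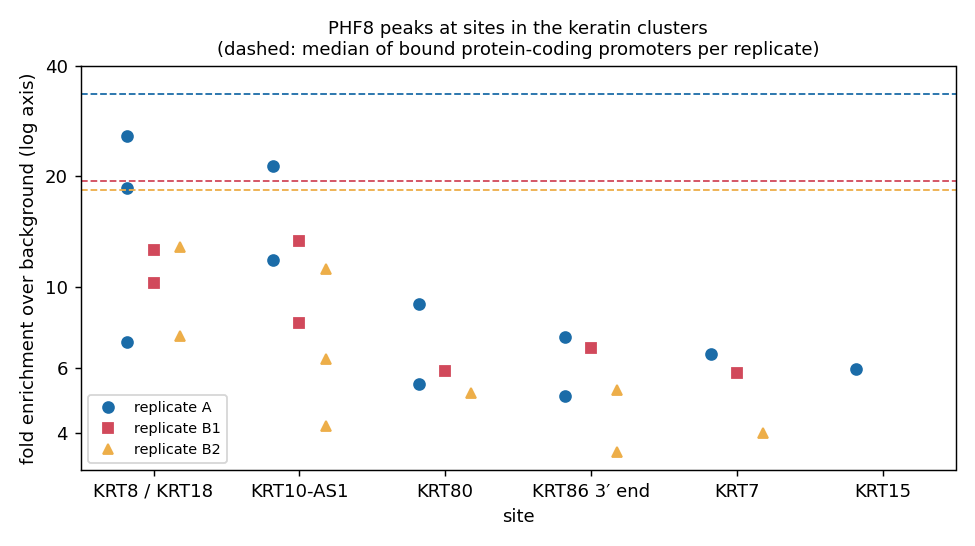
Fold enrichment (log axis) of every PHF8 peak within 1 kb of a start at 6 sites in the keratin clusters, 1 point per peak, by replicate; dashed lines mark the median of bound protein-coding promoters in the replicate of the same colour. All points of a replicate lie under its own line, from 25.8 in A at KRT8 / KRT18 down to 3.55 in B2 at the KRT86 3′ end.

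The bound keratin promoters were weak among bound promoters. Over the 12139 bound protein-coding genes the median fold enrichment of the strongest promoter peak was 33.4 (A), 19.4 (B1) and 18.4 (B2). Because the scale of fold enrichment differed between lists, each gene was ranked among these genes within its replicate. KRT8 and KRT18 shared the percentile 30.8 (A), 22.5 (B1) and 25.9 (B2) (mean 26.4 ± 4.15, SD, n = 3). KRT80 stood at a mean percentile of 2.59 ± 0.76 and KRT7 at 1.49 ± 1.32, and these 2 genes differed by less than the larger of their spreads. The mean over the 4 genes was 16.4 (A), 12.8 (B1) and 13.5 (B2), below 50 in all 3 replicates (14.2 ± 1.90, SD, n = 3). The same exact permutation test, against 50, gave p = 0.25. KRT8 and KRT18 count separately in this mean although they share 1 peak.

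Bound members also had more annotated starts. The 4 bound genes carried 3 to 18 TSSs (median 10) and the 50 genes without any promoter peak 1 to 9 (median 2), so the former had more windows in which a peak could fall. When only the canonical start of each gene was used, a choice made after seeing the data, 2 keratin genes were bound in all replicates, KRT18 and KRT80, and the other 53 had no peak there in any replicate. The share of all protein-coding genes bound at their canonical start was 57.3%. With the 5′ end of the gene record as the only TSS, 3 keratin genes were bound (KRT8, KRT18 and KRT80), beside 54.0% of all protein-coding genes.

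The keratins were also grouped by the tissue in which they are used. Of the 5 simple epithelial keratins, KRT7, KRT8 and KRT18 were bound, and KRT19 and KRT20 were not. This share of 3 in 5 is close to the 60.2% of all protein-coding genes, KRT8 and KRT18 are 1 region, and at canonical starts only 1 of the 5 was bound. None of the 3 basal layer keratins (KRT5, KRT14, KRT15) was bound in all replicates. The same held for the 5 suprabasal epidermal keratins (KRT1, KRT2, KRT9, KRT10, KRT77), the 5 mucosal and corneal ones (KRT3, KRT4, KRT12, KRT13, KRT76) and the 5 of activated epidermis (KRT6A, KRT6B, KRT6C, KRT16, KRT17). It also held for the 9 keratins of the hair root sheath and the 17 hair keratins. KRT80 was the single bound gene among the 6 remaining ones. By sequence type, 3 of 26 type II and 1 of 29 type I keratins were bound. By place, these were 4 of 27 genes on chromosome 12 and 0 of 28 on chromosome 17. These groups are small and were compared by counts only.

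Most keratin genes lay far from any peak, counting bound and unbound ones together. The median distance from a keratin gene to the nearest summit, taken over all its TSSs, was 56.2 kb (A), 65.6 kb (B1) and 65.3 kb (B2) (mean 62.4 kb ± 5.37, SD, n = 3). For the other protein-coding genes it was 0.165 kb, 0.17 kb and 0.171 kb. More than 10 kb separated the nearest summit from 45 keratin genes in A and 49 in each of B1 and B2, that is 81.8% and 89.1%, against 32.5%, 33.7% and 34.2% of other genes. Distances over 100 kb applied to 18 keratin genes in A (32.7%) and 21 in B1 and B2 (38.2%), against 12.9%, 13.8% and 14.3%. Members of a cluster share their nearest peaks, so these distances are not independent of each other.

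**Figure D2:**
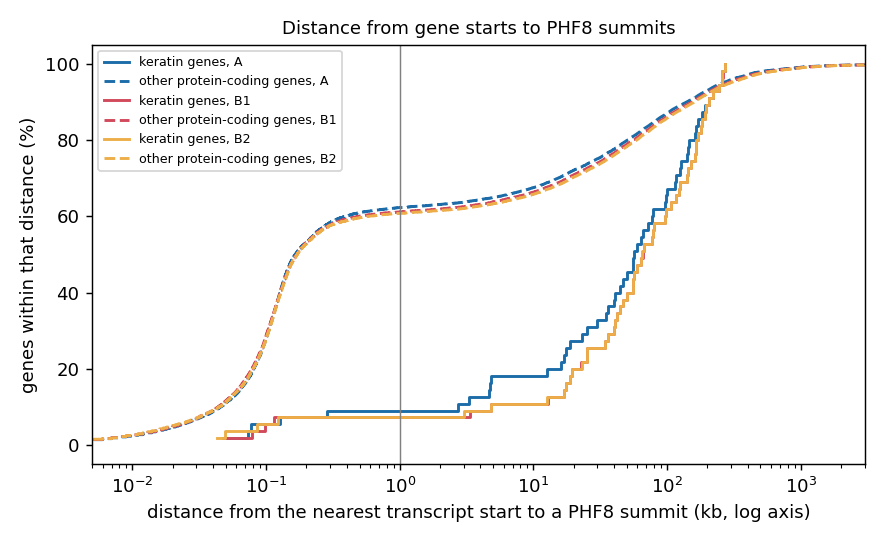
Cumulative share of genes (%) by the distance from their nearest transcript start to a PHF8 summit (kb, log axis), for keratin genes (solid) and other protein-coding genes (dashed) in each replicate; the grey line marks 1 kb. Most other genes lie to its left, with medians of 0.165 to 0.171 kb, whereas the keratin medians lie at 56.2 to 65.6 kb.

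Of the epidermal reference genes, KRT5 and KRT1 were distant from any peak. The nearest summit to KRT5 was 207 kb away in A, 208 kb in B1 and 207 kb in B2, and that to KRT1 was 194 kb away in every replicate. KRT72, a root sheath keratin, was the most distant, at 273 kb in each replicate. KRT14 was closer than the median keratin gene, at 34.6 kb (A), 34.2 kb (B1) and 34.6 kb (B2), and so was KRT17, which lay 41.0 kb from a summit in each. At the other extreme, the 5 unbound genes nearest to a summit were KRT19, KRT10, KRT36, KRT13 and KRT86. KRT10 was 3.31 kb, 3.33 kb and 3.02 kb away and KRT86 4.85 kb, 4.81 kb and 4.84 kb, so both were stable between replicates. KRT19 was 2.72 kb away in A but 19.6 kb in B1 and B2, KRT36 4.62 kb in A but 55.3 kb in the others, and KRT13 4.75 kb in A but 42.2 kb. For these 3 genes the near summit was in replicate A alone.

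The summit near KRT86 was the internal one of KRT7, upstream of the first KRT86 start, whereas that near KRT10 lay inside KRT10. KRT10 (ENSG00000186395, chr17:38974369-38978866, minus strand) encodes the type I keratin of the upper epidermis. Near its 3′ end starts KRT10-AS1, a lncRNA gene on the plus strand. There, a peak at chr17:38974821-38975305 in A, with its summit in a coding exon of KRT10, had a fold enrichment of 21.3 (A), 13.3 (B1) and 11.2 (B2). The summit lay 270 bp, 273 bp and 240 bp from the nearest KRT10-AS1 start. Another peak on the other side of that start had a fold enrichment of 11.8 (A), 7.95 (B1) and 6.38 (B2). KRT10 itself has 1 annotated TSS position, which had no peak.

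KRT86, a hair keratin, had a peak inside its gene body, far from its starts and near its 3′ end. This peak at chr12:52702179-52702442 in A, in a coding exon of KRT86, had a fold enrichment of 7.31 (A), 6.82 (B1) and 5.26 (B2). Its summit was 156 bp, 121 bp and 95 bp from the start of the lncRNA gene ENSG00000257829. The peaks sit on a start of another gene and inside a keratin gene body, and peak lists do not assign them to either.

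Peaks were unevenly spread over the keratin clusters. The chromosome 12 cluster ran from the first to the last keratin gene (chr12:52562780-53346690, 784 kb) and held the starts of 27 protein-coding genes, all keratins. It had 10 peaks in A, 7 in B1 and 7 in B2. The chromosome 17 cluster (chr17:38810917-39781094, 970 kb) held 63 starts, 28 of keratins, 34 of keratin-associated proteins (the matrix proteins of hair) and 1 of an unnamed gene, ENSG00000264058. It had 6 peaks in A, 4 in B1 and 5 in B2. None of these 63 genes was bound at its promoter in all replicates.

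Density in the chromosome 17 cluster was 5.15 peaks per Mb ± 1.03 (SD, n = 3), against 16.6 ± 0.374 in the rest of the chromosome. The difference was -11.5 peaks per Mb ± 1.01, negative in all 3 replicates (exact two-sided sign-flip permutation p = 0.25, the smallest possible). In the chromosome 12 cluster density was 10.2 ± 2.21, against 8.41 ± 0.159 elsewhere on that chromosome. The difference of 1.80 ± 2.08 was positive in all 3 replicates but smaller than their spread (exact two-sided sign-flip permutation p = 0.25). The clusters are rich in genes, with 34.4 protein-coding starts per Mb against 7.97 over chromosome 12, and 64.9 against 15.3 over chromosome 17. Against the 1 Mb on either side the direction on chromosome 12 turned, since these flanks had 34.0 ± 0.5 peaks per Mb and the difference was -23.8 ± 1.79. For chromosome 17 the flanks had 36.5 ± 1.32 and the difference was -31.3 ± 0.867.

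**Figure D3:**
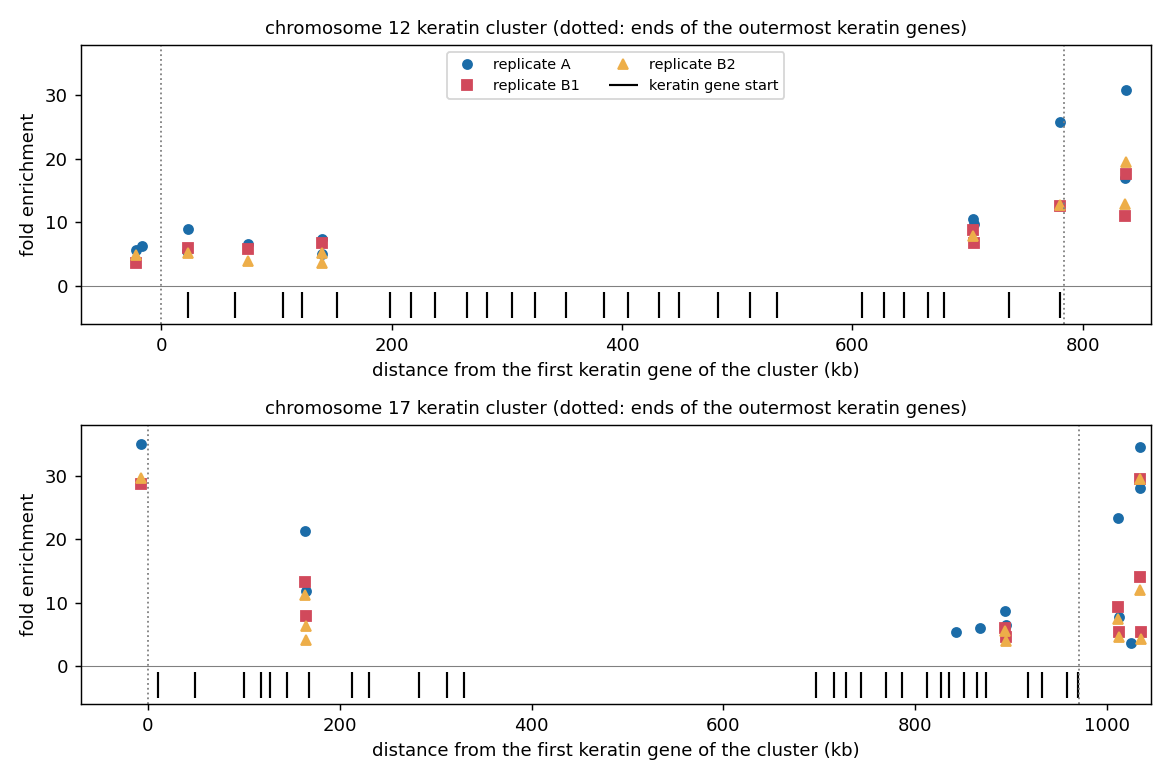
PHF8 peaks in the 2 keratin clusters, as fold enrichment against distance from the first keratin gene (kb), with 1 point for the strongest peak of each merged region and replicate; black ticks mark the canonical starts of keratin genes and dotted lines the cluster ends. A stretch of 565 kb on chromosome 12 and one of 677 kb on chromosome 17 hold none.

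Each cluster held a long stretch without peaks. On chromosome 12, no peak of any replicate fell between 52702675 and 53267780, a stretch of 565 kb with the starts of 21 keratin genes, from KRT83 to KRT78. The stretch was 565 kb in each replicate taken alone. On chromosome 17, no peak fell between 38975959 and 39653306, a stretch of 677 kb with 49 protein-coding starts, 15 of keratins and all 34 of the keratin-associated proteins in the cluster. Taken alone it was 678 kb in A and 728 kb in B1 and B2, where it held 18 keratins.

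Such stretches were long, and others of that length occur in the genome. Of 21587 peak-free stretches of the genome without gaps in the assembly, 1046 were at least as long as the one on chromosome 12 and 820 at least as long as that on chromosome 17. The median stretch of the genome was 26.8 kb. Within their own chromosomes, 53 of 1123 stretches on chromosome 12 and 15 of 1331 on chromosome 17 were at least as long. In the number of genes, counted over the whole genome, the keratin stretches stood at the end of the range. Only 52 stretches held 10 or more protein-coding starts, 9 held 21 or more, counting the chromosome 12 one, and the chromosome 17 stretch held the most of all with 49. The order depends on these 3 peak lists and on the gene annotation.

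Merged over replicates, the clusters held 16 regions. All 3 replicates had a peak at 8 of them, 2 replicates at 3 and 1 replicate at 5. Between KRT78 and KRT8, a shared region at chr12:53267781-53268088 lay between genes, 11.2 kb from the nearest TSS. Its fold enrichment was 10.5 (A), 8.77 (B1) and 7.79 (B2), above that of KRT80 and KRT7 in every replicate. Between KRT19 and KRT9, a shared region at chr17:39703837-39704270 lay 6.62 kb from the start of the lncRNA gene LINC00974, with a fold enrichment of 8.64, 6.05 and 5.53.

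Just outside, the nearest bound protein-coding promoters past KRT18, KRT222 and KRT17 had stronger peaks. The nearest bound protein-coding gene beyond KRT18 was EIF4B, a translation initiation factor, whose strongest region had a fold enrichment of 30.8 (A), 17.6 (B1) and 19.5 (B2). Before KRT222 on chromosome 17 the promoter of SMARCE1, a chromatin remodelling subunit, had 34.9, 28.7 and 29.7. Beyond KRT17, that of EIF1, another initiation factor, had 34.6, 29.4 and 29.4. Each of these promoters lay above the strongest keratin summit of its replicate. For the end before KRT80 no bound promoter is compared here. Other outside regions were weaker. Between KRT17 and EIF1, a region at chr17:39821910-39822694 had 23.3 (A), 9.37 (B1) and 7.47 (B2). Before KRT80, one at chr12:52540882-52541079 had 5.65, 3.66 and 4.79, below KRT80 in each replicate. Another there, at chr12:52546127-52546293, had 6.23 in A only.

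Keratin promoters were poor in CpG. Within 250 bp of the 5′ end of the gene record, the observed over expected CpG ratio had a median of 0.28 over keratin genes (range 0.093 to 0.84) and of 0.72 over other protein-coding genes, with a median of 9 and 33 CpGs. With a GC share of 0.5 or more and a ratio of 0.6 or more, a promoter counted as CpG-island-like. This held for 4 keratin genes (KRT18, KRT19, KRT72 and KRT81), or 7.27%, and for 59.0% of other protein-coding genes. Of all CpG-island-like protein-coding promoters 80.8% were bound, and of the others 30.7%. Of the 4 CpG-island-like keratin genes 1 was bound, KRT18, beside the 80.8% of all such genes. The other 3 were among the 51 keratin genes not bound in all replicates. The bound KRT7, KRT8 and KRT80 were not CpG-island-like at the scored 5′ end, where KRT7 had no peak in any replicate. Whether CpG content accounts for the low share of bound keratin genes was not tested.

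At the canonical start, 5 keratin genes were CpG-island-like and 1 of them, KRT18, was bound there, beside 79.7% of all such protein-coding promoters. KRT7 had 56 CpGs within 250 bp of its canonical start with a ratio of 0.83, and KRT19, the smallest type I keratin, had 49 with a ratio of 0.84. Both were close to KRT18, with 52 CpGs and a ratio of 0.79, yet had no peak within 1 kb. The nearest summit to the canonical KRT7 start was 11.2 kb, 11.3 kb and 11.2 kb away. KRT81, with a ratio of 0.62, and KRT72, with 0.76, also had none. KRT80 in contrast was bound at a ratio of 0.29 with 17 CpGs.

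**Figure D4:**
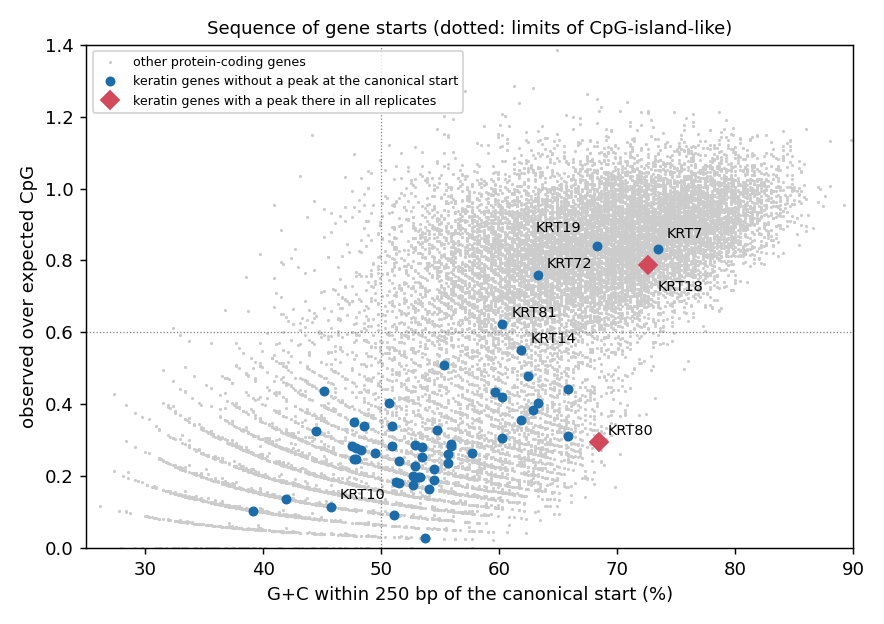
Observed over expected CpG ratio against G+C (%) within 250 bp of the canonical start, for keratin genes with a PHF8 peak there in all 3 replicates (diamonds), keratin genes without one (circles) and other protein-coding genes (grey). The 53 unbound keratin genes lie mostly at low ratios, but KRT7 (0.83) and KRT19 (0.84) lie beside the bound KRT18 (0.79).

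Searched letters described the promoters further. The TATA box, read as TATAAA between 40 and 15 bases upstream of the canonical start on the strand of the gene, was present in 20 of 55 keratin genes (36.4%) and in 3.78% of other protein-coding genes. Neither KRT18 nor KRT80 had these letters there. The letters GGGCGG, searched on both strands over the 250 bases upstream, were present in 10 keratin genes (18.2%) and 58.7% of the others, and both KRT18 and KRT80 held them. KRT7 and KRT19 held them as well. The letters of these 2 motifs cannot overlap, and a match is a description, not a site.

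Related gene lists showed a wider range. Among other intermediate filament genes, 8 of 16 were bound (50%), namely VIM, NES, SYNM, SYNC, LMNA, LMNB1, LMNB2 and BFSP1. VIM, which encodes vimentin, had a fold enrichment of 14.3 (A), 8.73 (B1) and 8.73 (B2), below the KRT8 and KRT18 site in each replicate. LMNB2, a nuclear lamin, had the highest rank of this list at a mean percentile of 82.9 ± 10.7 (SD, n = 3). The muscle filament gene DES, the neurofilament genes NEFL, NEFM and NEFH, INA, PRPH and BFSP2 had no promoter peak, and GFAP had one in B1 and B2 only. Of these unbound genes DES, INA, NEFL, NEFM and NEFH were CpG-island-like.

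Among desmosome and filament linker genes 7 of 16 were bound (43.8%). They were DSP, PKP2, PKP3, DSG2, DSC2, PLEC and DST, and PLEC, which encodes the linker plectin, had 36.2 (A), 22.5 (B1) and 17.4 (B2). PKP1, DSG1, DSG3, DSG4, DSC1, DSC3, PPL and EVPL had no promoter peak, and JUP had one in A only. Of these unbound genes PKP1 and DSC3 were CpG-island-like. None of 14 cornified envelope genes (IVL, FLG, LORICRIN and others) and none of 94 keratin-associated protein genes had a promoter peak in any replicate, and none was CpG-island-like. Of 16 epithelial transcription regulators, 7 were bound (43.8%), GRHL1, GRHL3, KLF4, KLF5, TFAP2A, TFAP2C and the splicing factor ESRP2. TP63, the regulator of basal epidermal cells, had none. All of these shares stood below the 60.2% of all protein-coding genes.

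**Figure D5:**
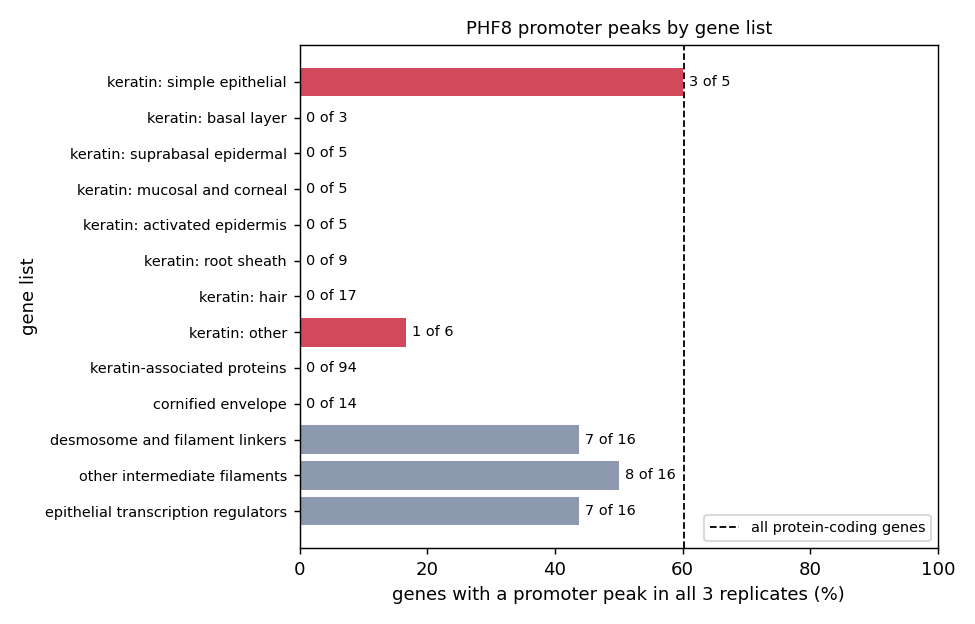
Share of genes (%) with a promoter peak in all 3 replicates, by keratin class (red) and related gene list (grey), with the count beside each bar; the dashed line marks all protein-coding genes (60.2%). Bars are empty for 6 of the 8 keratin classes, for keratin-associated proteins and for the cornified envelope.

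The precision of these calls is set by the depth of the libraries, and read totals were not used here. The lists held 20120 to 21506 peaks. The weakest called summits carried 8 to 10 fragments over a genome-wide background of 1.57 to 2.04, so weaker binding at a keratin gene was not detectable and is not shown to be absent. Reads in near-identical copies such as KRT6A, KRT6B and KRT6C may align to more than one place, and the effect of this on their calls was not tested. Nor was it tested for the keratin-associated protein genes, including those in the peak-free stretch of chromosome 17.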

How the data were processed

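Peak lists of 3 PHF8 ChIP-seq replicates were analysed, and the input libraries entered only through the peak calls. As the labels and methods state, the authors mapped reads to hg19 using Bowtie2 and called narrow peaks with MACS for each replicate against input, without pooling. The labels also name Picard, and the treatment of duplicate reads is not given in the sources used here. The deposited values are the fold enrichment (a linear ratio over local background), the −log10 p-value and the −log10 q-value of each peak, with the deposited score a rescaled q-value that was not used. All peaks passed the study's cutoffs, a fold above 1.5 and a q-value read as below 0.05. No peak ran past a GRCh37 chromosome end, and coordinates are 1-based.

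The keratin genes and lists were chosen with earlier results of these data known. Each transcript gave its 5′ end as a TSS (182 gene and TSS pairs for keratins). An overlap of 1 bp was enough. Fragments at a summit were the whole number that gave both the deposited fold enrichment and p-value under a Poisson law, found for 99.8% to 100% of peaks within 0.001 in log10 p. The genes named were the keratins with a promoter peak in any replicate, the 5 further ones nearest to a summit, KRT1, KRT5, KRT14, KRT17 and KRT19, bound genes inside or next to the clusters, and bound members of the other lists. KRT72, KRT81, KRT78, KRT83, 2 regions between genes inside the clusters, the weaker regions outside them and the unbound members of other lists were named after their values were seen. Scripts used Python 3.11.15, NumPy 2.4.6, pandas 2.3.3, SciPy 1.17.1 and Matplotlib 3.10.9 and were checked on simulated data. Differences over the 3 replicates were tested by exact two-sided permutation of their signs. Alternatives were other cutoffs, windows, TSS choices, comparison regions and CpG limits, and leaving out each replicate. Sequences of some other keratin promoters are not reported here.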

Additional observations from a re-analysis of the deposited data

How the results depend on the processing

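The count of 4 bound keratin genes fell to 2 with canonical starts only, an alternative added after seeing the data, and was 3 or 4 under the others. The number of CpG-island-like keratin promoters, 4, was 2 with 500 bp on each side and 2 with stricter limits (GC at least 0.55, ratio at least 0.65), since KRT72 and KRT81 no longer passed. The list of epithelial regulators had 4 bound genes in place of 7 with 1 TSS per gene. The density difference on chromosome 12 turned from 1.80 to -23.8 peaks per Mb against the 1 Mb on either side, and was 7.90 with the span widened by 100 kb on each side, where that on chromosome 17 was -5.47 in place of -11.5. In B2 alone the chromosome 12 difference was -0.488 with a q-value below 0.001 and -1.47 with a fold above 4, while the mean stayed positive. By gene, replicates with a KRT7 promoter peak fell from 3 to 0 with 1 TSS per gene, with coding transcripts only and with canonical starts. With canonical starts they also fell from 3 to 0 for KRT8 and from 1 to 0 for KRT15. Of the remaining recomputed values, each count was within 1.5 times the reported one, and each difference kept its sign. With 3 replicates no p under 0.05 could be reached, and p-values are therefore no measure of stability. The differences tested were taken within each replicate. No paired comparison between conditions was possible because a single group of ChIP replicates has peak lists. Without each replicate in turn, the count of bound keratin genes was 4 each time, and the chromosome 12 difference ran from 0.595 (without A) to 2.44.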
